A study of Homo sapiens and Canis lupus familiaris with 27 samples.

Results

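MYC and the ribosome biogenesis factors are 38 genes, chosen by name from the gene count tables of 3 prostate carcinoma lines, namely PC-3 and LNCaP from men and CT1258 from a dog. All 38 were listed among the 23708 genes of the PC-3 and of the LNCaP table. In CT1258, 34 were listed among 16028 genes, and DKC1, TSR1, BOP1 and PPAN had no row of that name. Every listed member passed the filter on low counts. The genes tested numbered 13777 for PC-3, 13156 for LNCaP and 9886 for CT1258.

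The cells were exposed for either 12 h or 24 h to the indolylmaleimide PDA-66 at 15 μM, or to the vehicle, 0.15% DMSO. The DMSO cells are labelled 24 h, so the 12 h cells have no vehicle control of their own time, and both PDA-66 groups of a line were compared with the same DMSO samples. Each group held 3 samples from independent cultures, apart from PC-3 DMSO with replicates 2 and 3, since replicate 1 was not used here. No other treatment or genetic change is given for any group, and each model is a single established line. Levels are given as CPM, the count of a gene relative to the total of its sample on a common scale for each line. LNCaP had KLK3, which encodes prostate-specific antigen, at 48.8 CPM, whereas PC-3 had KLK3 at 0 CPM with KRT8 at 178 CPM (means of the DMSO samples). In CT1258, EPCAM was at 0 CPM in all DMSO samples and KRT8, KRT18 and CDH1 had no row, so its epithelial label could not be checked against keratins.

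Total counts ranged from 14650839 to 18091755 per sample in PC-3 and from 11923105 to 14741883 in LNCaP. In CT1258, the median was 20174070 in the DMSO group and 7535117 and 7542484 after 12 h and 24 h, so that depth differed between the groups compared. Replicate 2 of the LNCaP 12 h group stood apart from its group. Its log2 levels differed from the mean of the other 2 samples with an SD of 0.914 over all genes, compared with 0.437 and 0.556 for those 2 samples and 0.198 to 0.446 for the LNCaP DMSO and 24 h samples. The values of LNCaP after 12 h are therefore given with and without it. In these bulk samples, fewer cells of a kind and less RNA per cell cannot be told apart, and values are relative to the total RNA counted.

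MYC is a transcription factor that binds the E-box sequence CACGTG together with MAX and is known to promote growth, to a large part through genes that make ribosomes. Ribosome synthesis starts in the nucleolus, where RNA polymerase I transcribes the precursor of the ribosomal RNA. The precursor is modified by small nucleolar ribonucleoproteins (snoRNPs), cleaved and assembled with ribosomal proteins by the small subunit processome and by factors of the large subunit, and the late factors complete the subunits in nucleus and cytoplasm.

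The E-box was searched in promoter sequences of RefSeq (build GRCh38.p14), which run from 250 bases before to 50 bases after the start of a gene. The motif is its own reverse complement, so that 1 search covers both strands. Of 30 members with a sequence in this set, 12 (40%) held the E-box in at least 1 window, compared with 10.9% of 15843 protein-coding genes. The stretch around the E-box is shown with the E-box in capitals and cut 30 bases after the start. It is given for 1 member of each role that holds one, the member with the largest change in PC-3 after 12 h in either direction among those whose E-box lay wholly before that cut. This leaves out MYBBP1A, NOP2, BYSL and LTV1, where the E-box began 27 to 35 bases after the first base. These are GNL3 (chr3:52685978-52686061, plus strand), FBL (chr19:39846350-39846433, minus strand), UTP20 (chr12:101280035-101280134, plus strand), PNO1 (chr2:68157837-68157917, plus strand) and PES1 (chr22:30591881-30591957, minus strand).
GNL3: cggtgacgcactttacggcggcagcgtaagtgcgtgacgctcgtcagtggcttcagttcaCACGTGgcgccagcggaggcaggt
FBL: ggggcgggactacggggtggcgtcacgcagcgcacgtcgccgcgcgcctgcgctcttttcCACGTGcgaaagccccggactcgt
UTP20: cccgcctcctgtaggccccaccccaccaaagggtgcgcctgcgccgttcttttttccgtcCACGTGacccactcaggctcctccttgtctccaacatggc
PNO1: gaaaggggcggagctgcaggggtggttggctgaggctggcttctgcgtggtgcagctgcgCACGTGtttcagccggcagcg
PES1: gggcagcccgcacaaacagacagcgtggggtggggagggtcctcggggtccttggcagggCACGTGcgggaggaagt
In UTP20 the E-box began 10 bases before the start of the gene, and in the others 6 to 13 bases after the first base. A match is a property of the letters and does not show that MYC binds there.

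MYC fell in PC-3 after PDA-66 and came partly back between 12 h and 24 h. The PC-3 DMSO samples had 730 and 789 CPM, the 12 h samples 222, 213 and 236 CPM, and the 24 h samples 395, 370 and 373 CPM. The 3 groups did not overlap, and the 24 h samples lay between the other groups. The log2 fold change against DMSO was -1.76 ± 0.092 (SE) after 12 h, a level 3.39-fold lower (adjusted p = 9.53e-09, edgeR quasi-likelihood test), and -0.9996 ± 0.0917 after 24 h (adjusted p = 3.02e-06). The rise from 12 h to 24 h was 0.76 ± 0.084 on the log2 scale (adjusted p = 9.82e-05). It remained a rise of 0.73 to 0.80 when single samples were left out, but passed 0.001 no longer without P12-1, P12-2 or replicate 3 of the 12 h group or replicate 1 or 2 of the 24 h group.

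In LNCaP, MYC was at 265, 197 and 298 CPM with DMSO, at 203, 217 and 206 CPM after 12 h and at 250, 252 and 264 CPM after 24 h. The PDA-66 samples fell inside the range of the DMSO samples, and neither difference passed the test (log2 fold change -0.28 ± 0.16 and 0.01 ± 0.16, adjusted p = 0.274 and 0.983). Without replicate 2 of the 12 h group, the 12 h value was -0.31 ± 0.15 (adjusted p = 0.139). In CT1258, MYC was at 392, 528 and 394 CPM with DMSO, at 357, 311 and 340 CPM after 12 h and at 360, 357 and 348 CPM after 24 h. All 6 PDA-66 samples were below the DMSO samples. The log2 fold changes of -0.38 ± 0.11 and -0.30 ± 0.11 had adjusted p-values of 0.00651 and 0.0274 and were thus over the threshold of 0.001. DMSO replicate 2 was the highest sample, and without it the values were -0.23 and -0.15.

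**Figure D1:**
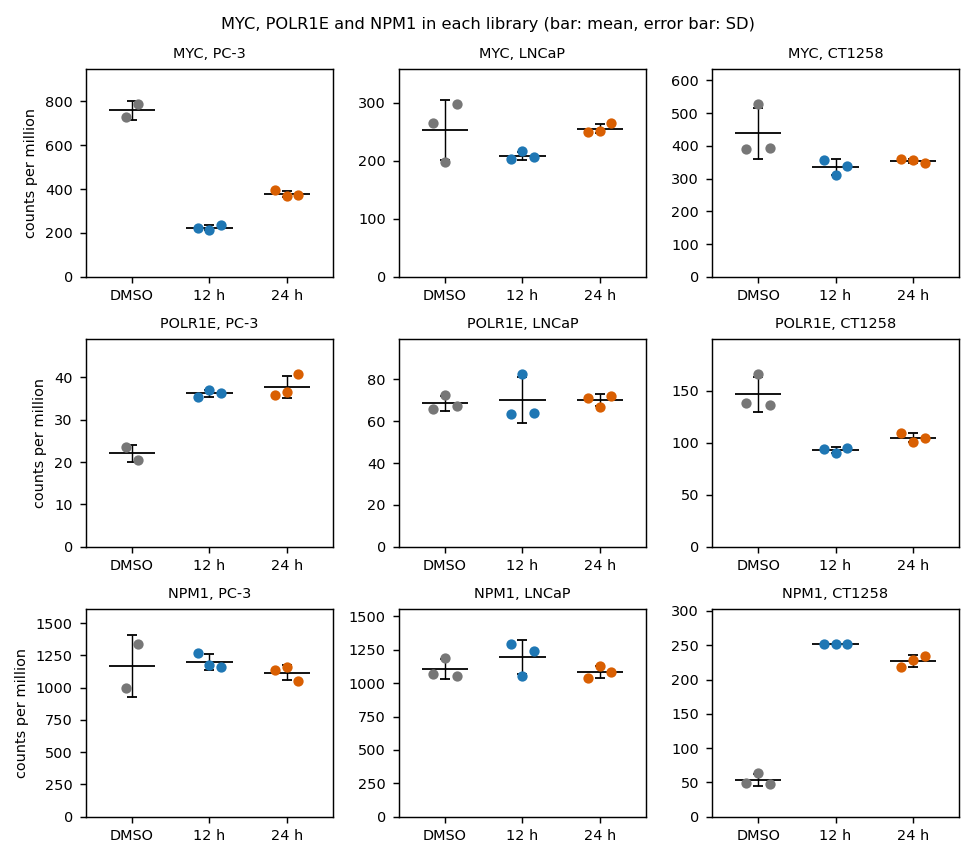
CPM (vertical axes, each from 0) of MYC, POLR1E and NPM1 in each library of the 3 cell lines, with DMSO, 12 h and 24 h on the horizontal axis. Points are libraries, horizontal bars means and error bars SD. MYC in PC-3 lies between 730 and 789 CPM with DMSO and between 213 and 236 CPM after 12 h, and NPM1 of CT1258 rises from 47.6 to 63.3 CPM to at least 218 CPM.

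The ribosome biogenesis factors of PC-3 did not fall with MYC as a group. Of the 38 members, 9 were called after 12 h (7 higher and 2 lower), or 23.7%, compared with 27.6% of all genes tested. After 24 h 4 were called (2 higher and 2 lower), or 10.5%, compared with 19.3% of all genes. The median log2 fold change of the members was 0.18 after 12 h and 0.15 after 24 h, with -0.01 over all genes at both times. Above 0 were 28 and 26 of the 38, compared with 49.7% and 49.3% of all genes. Of all genes, 13% were higher and 14.6% lower after 12 h and 8.88% and 10.5% after 24 h. With scaling by library size alone, 9 members were called after 24 h (8 higher and 1 lower), and the share of higher genes among all calls was 57.8% in place of 45.9%. At an adjusted p under 0.05, 20 members passed after 12 h and 19 after 24 h, of which 15 and 14 were above DMSO, compared with 57% and 49.9% of all genes. The summed counts of the members made up 0.686% and 0.753% of all counts with DMSO and 0.747% to 0.784% in the PDA-66 samples.

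Among the RNA polymerase I genes of PC-3, 2 of 6 were higher after 12 h. POLR1E (chr9:37485945-37503694 in hg19), a subunit of the polymerase, was at 23.5 and 20.6 CPM with DMSO, at 35.4, 37.0 and 36.3 CPM after 12 h and at 35.9, 36.5 and 40.8 CPM after 24 h. All PDA-66 samples were above the DMSO samples, and the log2 fold changes were 0.72 ± 0.11 and 0.77 ± 0.11 (adjusted p = 0.000122 and 9.78e-05). POLR1A (chr2:86247339-86333278), the largest subunit, was at 78.5 and 37.9 CPM with DMSO and at 119, 137 and 130 CPM after 12 h. The DMSO samples differed widely from each other, though both were below the PDA-66 samples. The log2 fold change of 1.15 ± 0.22 (adjusted p = 0.000581) was 0.72 without DMSO replicate 3 and 1.77 without DMSO replicate 2, and lost the call in the 6 fits that left out 1 PDA-66 sample. After 24 h POLR1A was 1.10 ± 0.22 (adjusted p = 0.00107). POLR1B, POLR1C, UBTF and RRN3 were not called at either time and ranged from -0.48 to 0.44.

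UTP20, a scaffold protein of the small subunit processome, had the largest rise among the members of PC-3 after 12 h. It was at 68.0 and 47.3 CPM with DMSO, at 149, 149 and 151 CPM after 12 h and at 105, 107 and 102 CPM after 24 h, without overlap between the groups. The log2 fold change was 1.38 ± 0.13 after 12 h (adjusted p = 2.00e-06) and 0.86 ± 0.13 after 24 h (adjusted p = 0.000143). UTP15, another processome protein, had 19.2 and 24.7 CPM with DMSO and 40.5, 39.2 and 38.3 CPM after 12 h (0.84 ± 0.13, adjusted p = 0.000112). WDR43, WDR75, RRP9 and DDX10 of the same role were not called.

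Of the late small subunit factors, PNO1 was higher and NOB1 lower in PC-3. PNO1, which acts together with NOB1 in the last step of 18S ribosomal RNA maturation, had 27.6 and 34.9 CPM with DMSO and 59.9, 52.8 and 52.8 CPM after 12 h (0.82 ± 0.12, adjusted p = 8.38e-05). NOB1, the nuclease of this step, had 85.6 and 105 CPM with DMSO and 64.9, 66.2 and 64.3 CPM after 12 h and 63.8, 62.2 and 69.7 CPM after 24 h. Its samples did not overlap with DMSO, and the log2 fold change was -0.55 ± 0.11 at both times (adjusted p = 0.000634 and 0.000887). Leaving out single samples kept the NOB1 call after 12 h only without DMSO replicate 2 or 24 h replicate 3, and after 24 h only without DMSO replicate 2. It was lost in the other 6 and 7 of 8 fits, where leaving out DMSO replicate 3 gave -0.38 at both times. In the annotation 20.4% of the NOB1 exons overlap NQO1-DT on the other strand, and reads of both cannot be told apart without strand. RRP12, BYSL, LTV1 and TSR1 were not called.

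Of 9 large subunit factors, BOP1 and RRP1B were higher in PC-3 after 12 h. BOP1 works in a complex with PES1 and WDR12 and had 52.0 and 40.8 CPM with DMSO and 72.7, 81.5 and 80.9 CPM after 12 h (0.76 ± 0.13, adjusted p = 0.000257). PES1 and WDR12 were at 0.02 ± 0.10 and 0.19 ± 0.091 and were not called. RRP1B had 120 and 107 CPM with DMSO and 167, 161 and 170 CPM after 12 h (0.55 ± 0.09, adjusted p = 0.000247). The RRP1B call was lost without any 1 of the 3 samples of the 12 h group, and the BOP1 call without P12-2, 12 h replicate 3 or DMSO replicate 3.

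None of the 6 abundant nucleolar proteins and none of the 4 snoRNP core proteins was called in PC-3 by edgeR at the threshold of 0.001. With the GC and length correction given below, GNL3 was called lower at both times and MYBBP1A higher after 12 h. NPM1 had 1000 and 1339 CPM with DMSO and 1157 to 1270 CPM after 12 h. NCL, which binds ribosomal RNA precursors, had 902 and 843 CPM with DMSO and 1010 to 1059 CPM after 12 h (0.24 ± 0.09, adjusted p = 0.0323). FBL (fibrillarin), the methyltransferase of the snoRNPs, had 170 and 202 CPM with DMSO and 131 to 146 CPM after 12 h (-0.44 ± 0.11, adjusted p = 0.00351). In all, 5 of the 9 calls after 12 h (MYC, POLR1E, UTP20, UTP15 and PNO1) and 3 of the 4 after 24 h (MYC, POLR1E and UTP20) were kept in each of the 8 fits that left out 1 sample.

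**Figure D2:**
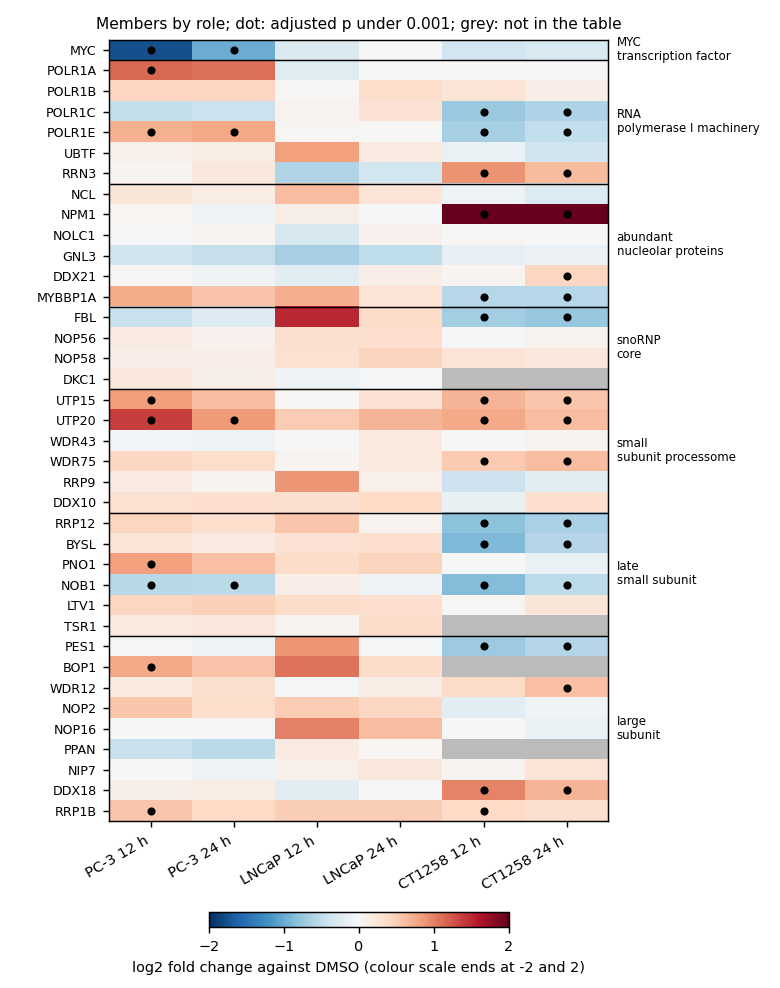
Log2 fold change against DMSO (colour, red higher and blue lower, ending at -2 and 2) of the 38 members (rows, grouped by role) in the 6 comparisons (columns). Dots mark an adjusted p under 0.001 and grey cells members with no row in the CT1258 table. MYC is blue with a dot in both PC-3 columns, LNCaP has no dot, and POLR1E is red in PC-3 and blue in CT1258.

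In LNCaP, 0 of 38 members were called at either time by edgeR's quasi-likelihood test, and 0.0076% of all genes after 12 h and 0% after 24 h. At an unadjusted p under 0.05 there were 10 and 9 members, compared with 30% and 19.8% of all genes. The DESeq2 Wald test called 2 members after 12 h and 0 after 24 h, the edgeR likelihood ratio test 0 and 0, and limma voom 4 and 4. The shares of all genes by these tests were 4.71% and 2.17%, 4.34% and 1.96%, and 13.9% and 11.2%. With an adjusted p under 0.05, RRN3 and GNL3 were lower after 12 h, where 9.14% of all genes passed, and 0 members after 24 h, where 2.92% passed. The median log2 fold change of the members was 0.15 and 0.21 (0.03 and -0.01 over all genes). Above 0 were 29 and 31 of 38 members, compared with 52.2% and 48.7% of all genes. Without replicate 2 of the 12 h group, the median after 12 h was 0.0854 (-0.02 over all genes) and 22 of 38 were above 0.

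RRN3 (chr16:15153890-15188168), the factor that brings RNA polymerase I to its promoter, was at 126, 151 and 144 CPM with DMSO, at 99.7, 87.6 and 90.8 CPM after 12 h and at 103, 112 and 108 CPM after 24 h. GNL3 (nucleostemin), a nucleolar GTPase, was at 370, 489 and 455 CPM with DMSO, at 284, 292 and 252 CPM after 12 h and at 300.1, 309 and 312 CPM after 24 h. For both genes all PDA-66 samples were below the DMSO samples. After 12 h the log2 fold changes were -0.60 ± 0.14 for RRN3 and -0.67 ± 0.15 for GNL3 (adjusted p = 0.0300 and 0.0249). Each passed 0.05 no longer in 6 of 9 fits without 1 sample (without DMSO replicate 2 or 3, 12 h replicate 3 or any 24 h replicate), where the values were -0.67 to -0.54 and -0.77 to -0.58 over all 9 fits.

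The highest values of LNCaP after 12 h came from replicate 2 of that group. FBL had 239, 188 and 226 CPM with DMSO and 263, 1296 and 294 CPM after 12 h, with 1296 CPM in replicate 2. PES1 had 140 to 175 CPM with DMSO and 124, 616 and 150 CPM after 12 h, and UBTF, an activator of the ribosomal RNA genes, 139 to 152 CPM with DMSO and 142, 478 and 159 CPM. UTP15 was low in the same sample, with 60.5, 21.2 and 56.2 CPM. The members made up 0.957% of its counts, compared with 0.748% to 0.832% in the other LNCaP samples.

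Without this sample, 7 members were higher and 2 lower at an adjusted p under 0.05 after 12 h, compared with 29.1% of all genes, and 0 were called at 0.001, where 1.96% of all genes were. At an unadjusted p under 0.05 there were 15 members, compared with 42.5% of all genes. The FBL value after 12 h fell from 1.503 ± 0.52 to 0.36 ± 0.11 on the log2 scale. After 24 h, where the sample enters only through the shared spread, 15 members were higher and 2 lower (27.9% of all genes), again with 0 at 0.001 (0.787%). UTP20 was at 0.69 ± 0.093 after 24 h without the sample (adjusted p = 0.00135), and the lower members were RRN3 and GNL3.

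**Figure D3:**
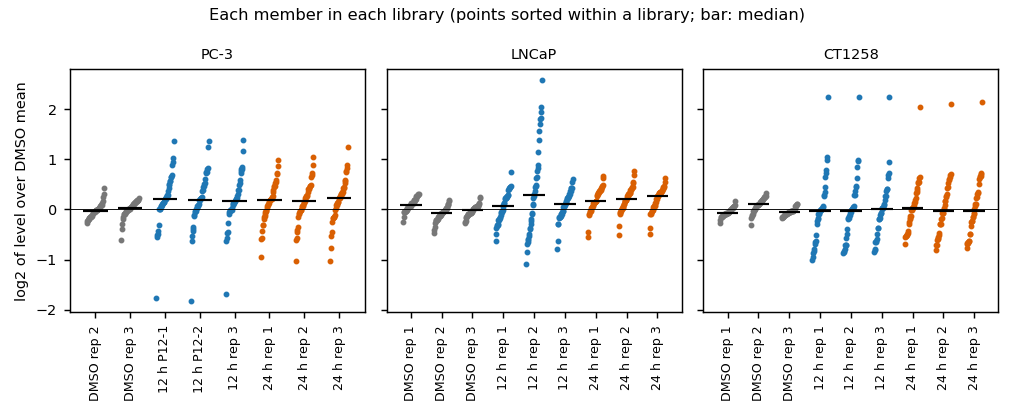
Log2 of the level of each member over its mean in the DMSO samples (vertical axis) in each library (horizontal axis), with points sorted within a library and a bar at the median. Replicate 2 of the LNCaP 12 h group spreads further than the other LNCaP libraries, and in PC-3 the lowest point of each PDA-66 library is MYC.

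In CT1258, 15 of 34 members were called after 12 h (7 higher and 8 lower), or 44.1%, compared with 44.3% of all genes tested. After 24 h 16 were called (8 higher and 8 lower), or 47.1%, compared with 33.8% of all genes. Of all genes, 22.2% were higher and 22.1% lower after 12 h and 16.6% and 17.2% after 24 h. The median of the members was 0.00 and -0.02 (0.00 and -0.01 over all genes). Of these calls, 12 of 15 and 7 of 16 were kept in each of the 9 fits that left out 1 sample. The count after 24 h was 7 without replicate 2 and 7 without replicate 3 of the 24 h group, and 11 without replicate 1.

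NPM1 (nucleophosmin; chr5:170814120-170838814 in the human genome), a chaperone of ribosomal proteins, showed the largest rise. It was at 48.6, 63.3 and 47.6 CPM with DMSO, at 251, 252 and 252 CPM after 12 h and at 218, 229 and 235 CPM after 24 h. The groups were far apart, with log2 fold changes of 2.24 ± 0.11 (adjusted p = 1.64e-09) and 2.10 ± 0.10 (adjusted p = 3.37e-09). NPM1 has near-identical processed copies in mammalian genomes, and how reads that fit several places were counted is not given, so this value is uncertain.

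The other higher members were DDX18, an RNA helicase of the large subunit, RRN3, and the processome proteins UTP15, UTP20 and WDR75. DDX18 had 54.2, 50.04 and 48.6 CPM with DMSO, 106, 101 and 98.6 CPM after 12 h and 80.0, 83.0 and 81.1 CPM after 24 h. RRN3 had 81.3, 81.3 and 78.3 CPM with DMSO, 160, 158 and 132 CPM after 12 h and 123, 129 and 123 CPM after 24 h. Neither gene overlapped between DMSO and PDA-66 samples, with log2 fold changes after 12 h of 0.997 ± 0.081 for DDX18 (adjusted p = 1.61e-07) and 0.90 ± 0.086 for RRN3 (adjusted p = 7.06e-07), and after 24 h of 0.68 ± 0.08 (adjusted p = 9.50e-06) and 0.64 ± 0.09 (adjusted p = 2.56e-05). UTP15, UTP20 and WDR75 ranged from 0.52 to 0.75 at the 2 times. RRP1B was called after 12 h only (0.40 ± 0.08), and the helicase DDX21 (0.43 ± 0.08) and WDR12 (0.60 ± 0.09) after 24 h only.

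The 8 lower members were the same genes at both times, namely POLR1C, POLR1E, MYBBP1A, FBL, BYSL, NOB1, RRP12 and PES1. BYSL, a late small subunit factor, had 92.8, 119 and 99.0 CPM with DMSO, 51.2, 57.4 and 60.3 CPM after 12 h and 72.2, 68.7 and 65.4 CPM after 24 h. NOB1 had 167, 234 and 179 CPM with DMSO, 101, 106 and 110 CPM after 12 h and 137, 138 and 125 CPM after 24 h. RRP12, an export factor of the subunits, had 191, 213 and 198 CPM with DMSO, 112, 116 and 112 CPM after 12 h and 139, 123 and 124 CPM after 24 h. In these 3 genes every PDA-66 sample was below every DMSO sample.

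After 12 h the log2 fold changes were -0.88 ± 0.11 for BYSL, -0.87 ± 0.11 for NOB1 and -0.82 ± 0.08 for RRP12 (adjusted p = 5.68e-06, 1.15e-05 and 9.88e-07). After 24 h the lowest were FBL, RRP12 and POLR1C, with -0.75 ± 0.13, -0.64 ± 0.08 and -0.62 ± 0.11 (adjusted p = 0.000154, 1.48e-05 and 0.000231). FBL had 220, 331 and 242 CPM with DMSO and 163, 151 and 156 CPM after 24 h. POLR1C, a subunit shared by RNA polymerases I and III, had 54.1, 64.8 and 53.4 CPM with DMSO and 40.1, 34.9 and 37.3 CPM after 24 h. The call of FBL was lost without any 1 of the 24 h samples and that of POLR1C without replicate 2 or 3 of them.

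Higher and lower members of CT1258 differed in the GC content of their human exons, which stand in for the canine ones that were not analysed here. The median was 40.4% for the 7 higher and 55.7% for the 8 lower members after 12 h. Across the 34 members, the Spearman correlation of the log2 fold change with GC content was -0.756 after 12 h and -0.792 after 24 h, and over all genes with a GC value -0.631 and -0.639. The points of these correlations share the same libraries, and the DMSO libraries were the deeper ones. In PC-3 it was -0.0862 and -0.151 across 38 members, and in LNCaP 0.513 and -0.0668. Without replicate 2 of the LNCaP 12 h group, the 12 h value turned to -0.345, so that the sign rests on this sample. The part of GC content in these results was not tested further than by a correction.

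After a correction for GC content and length, chosen after the data were seen, 17 members were called in CT1258 after 12 h (6 higher and 11 lower, 34.7% of all genes) and 9 after 24 h (3 higher and 6 lower, 25%). These were partly other genes, since 10 of the 15 members called without the correction kept a call after 12 h and 4 of 16 after 24 h, and 7 and 5 were called only with it. The 4 were NPM1 (1.68 on the log2 scale), FBL (-0.46), POLR1C (-0.77) and POLR1E (-0.29). The other large changes became smaller. After 12 h DDX18 was at 0.504 and RRN3 at 0.43 with the correction, BYSL at -0.36, NOB1 at -0.42 and RRP12 at -0.36, each with a call, and UTP15 at 0.13 without one. After 24 h all 6 lost their call (adjusted p = 0.00428 for DDX18, 0.00761 for RRN3, 0.0504 for BYSL, 0.0534 for NOB1, 0.00901 for RRP12 and 0.288 for UTP15, edgeR quasi-likelihood test). MYBBP1A and WDR75 turned direction after 12 h, to 0.03 and -0.15, and lost their call. UBTF, at -0.14 without the correction, was called higher with it (0.39). Thinning the DMSO counts to the depth of the PDA-66 samples gave 16 calls at each time (8 higher and 8 lower). In PC-3 the correction gave 16 calls after 12 h (13 higher and 3 lower, 35.9% of all genes) and 12 after 24 h (9 higher and 3 lower, 27.1%), and the 9 and 4 members called without it were among them.

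**Figure D4:**
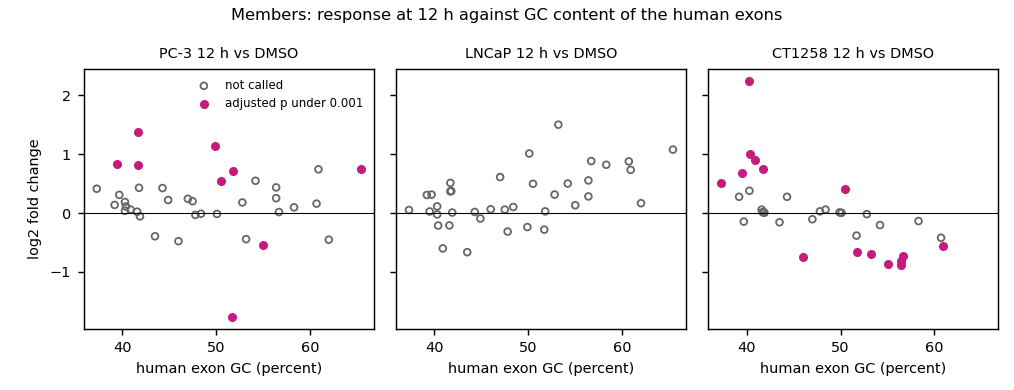
Log2 fold change after 12 h (vertical axis) against the GC content of the human exons in percent (horizontal axis) for each member in the 3 cell lines, with filled points for an adjusted p under 0.001. In CT1258 the points fall from left to right (Spearman -0.756, 34 members), and in PC-3 they do not (-0.0862, 38 members).

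**Figure D5:**
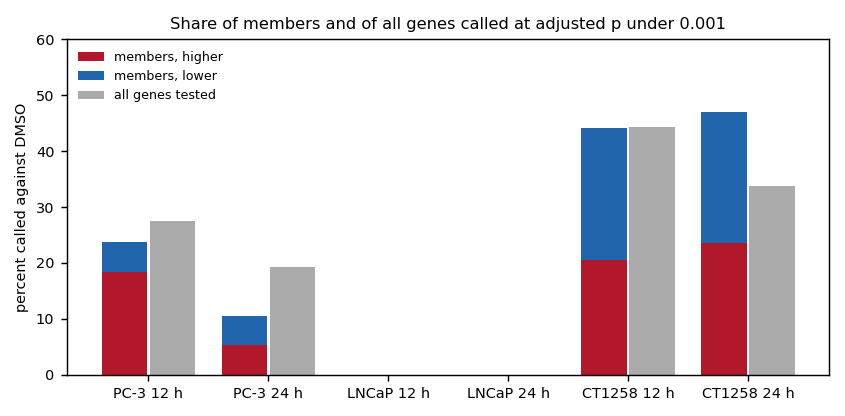
Percent of members called higher (red) and lower (blue) and percent of all genes called (grey) at an adjusted p under 0.001 in the 6 comparisons with DMSO. The bars of PC-3 members (23.7% and 10.5%) are below those of all genes (27.6% and 19.3%), and LNCaP has no bar for members.

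Between 24 h and 12 h, MYC was the 1 member called in PC-3, where 1.41% of all genes were called. By the same edgeR test, 0 members were called in LNCaP and CT1258, with 0% and 2.13% of all genes, although 2 and 10 members had an unadjusted p under 0.05 (6.36% and 32.5% of all genes). The likelihood ratio test called 0 and 2 (0.0304% and 7.38%). In CT1258, DDX10 and DDX21 were higher and DDX18 and RRN3 lower after 24 h at an adjusted p under 0.05 (0.48 ± 0.094, 0.37 ± 0.078, -0.32 ± 0.081 and -0.26 ± 0.086), where 19.3% of all genes passed.

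The response itself was compared between the lines for the 34 members that the 3 tables share, with an adjusted p under 0.05 for the difference as the threshold. PC-3 and LNCaP differed in 6 members after 12 h and 5 after 24 h (19.6% and 9.7% of all genes). PC-3 and CT1258 differed in 12 and 9 (30.1% and 21.2%), and LNCaP and CT1258 in 18 and 8 (40.2% and 21.1%). MYC responded differently in PC-3 than in LNCaP, by -1.45 ± 0.19 after 12 h and -0.99 ± 0.19 after 24 h (adjusted p = 1.73e-05 and 0.00199). It also differed between PC-3 and CT1258, by -1.40 ± 0.19 and -0.71 ± 0.19 (adjusted p = 9.32e-06 and 0.0113).

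Without the correction for GC content and length, POLR1E was the only member called in opposite directions in 2 lines. With the correction, BYSL, LTV1, PNO1 and RRP12 were also called higher in PC-3 and lower in CT1258 after 12 h. Their log2 fold changes were 0.45, 0.59, 0.93 and 0.42 in PC-3 and -0.36, -0.34, -0.37 and -0.36 in CT1258. In the human annotation 34.7% of the LTV1 exons overlap another gene on the same strand, so its counts in PC-3 are uncertain. The response of POLR1E in PC-3 exceeded that in CT1258 by 1.36 ± 0.17 after 12 h and 1.25 ± 0.17 after 24 h (adjusted p = 2.36e-06 and 1.42e-05). In LNCaP, POLR1E was at 66.0, 72.7 and 67.1 CPM with DMSO and 63.3 to 82.7 CPM after PDA-66. NPM1 rose more in CT1258 than in PC-3 by 2.22 ± 0.19 and 2.18 ± 0.19, and than in LNCaP by 2.18 ± 0.18 and 2.15 ± 0.18, as the size of the difference. POLR1A rose more in PC-3 than in LNCaP, by 1.42 ± 0.24 and 1.13 ± 0.24 (adjusted p = 0.000235 and 0.00380). RRN3 was at -0.60 and -0.39 in LNCaP and rose in CT1258, and the responses differed by -1.55 ± 0.15 and -1.06 ± 0.15 (adjusted p = 1.14e-07 and 3.43e-05).

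FBL also differed after 12 h, by -1.89 ± 0.50 between PC-3 and LNCaP and by 2.13 ± 0.48 between LNCaP and CT1258 (adjusted p = 0.00984 and 0.00123). Without LNCaP 12 h replicate 2 these differences were -0.79 and 1.02 and still passed (adjusted p = 0.00205 and 4.67e-05), whereas those of UBTF, RRP9, NOP16 and WDR12 between LNCaP and CT1258 did not. Leaving it out also changed the spread shared by all lines, and the counts became 10 and 8 (25.6% and 22.8% of all genes), 17 and 17 (44.1% and 35.9%), and 15 and 20 (38.7% and 36.5%) in the order given above. The differences of MYC, POLR1A and RRN3 that involve LNCaP after 12 h were -1.45, 1.33 and -1.498 without it and still passed, and that of NPM1 was -2.08. The canine reads were mapped and counted with other tools than the human reads, so species and processing cannot be told apart in these differences. Depth also differed between the CT1258 groups, and no difference between lines was fitted with the GC and length correction. Within CT1258, this correction took RRN3 from 0.90 to 0.43 after 12 h and from 0.64 to 0.24 after 24 h. NPM1 went from 2.24 to 1.74 and from 2.10 to 1.68. The part of GC content in the differences between lines was not tested.

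Before PDA-66, 6 of 38 members (15.8%) differed between PC-3 and LNCaP, compared with 40.8% of all genes. MYC was 3.05-fold higher in PC-3 (log2 difference 1.61 ± 0.15, adjusted p = 4.77e-08), and POLR1C, WDR75 and BOP1 were higher by 1.32 ± 0.19, 1.53 ± 0.21 and 1.88 ± 0.39. POLR1E was higher in LNCaP by 1.61 ± 0.15 and NOLC1 by 0.67 ± 0.14, as the size of the log2 difference. After 12 h of PDA-66, MYC of PC-3 (213 to 236 CPM) was thus within the range of the LNCaP samples (197 to 298 CPM), when the lines are scaled separately.

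Partners and rivals of MYC, such as the MXD proteins that compete for MAX, were counted beside the members. The list also holds related genes of the MYC network, and all are called partners below. The shares of all genes to set beside these counts are 13% higher and 14.6% lower in PC-3 after 12 h, 8.88% and 10.5% after 24 h, and in CT1258 22.2% and 22.1% after 12 h and 16.6% and 17.2% after 24 h. In PC-3, 1 of 16 was higher and 6 were lower after 12 h, and 24 h gave 1 and 4, led by MLXIPL (-1.76 ± 0.29), MXI1 (-1.54 ± 0.11) and MXD4 (-1.20 ± 0.11) after 12 h. In CT1258, 3 were higher and 4 lower after 12 h, among them MYCBP at 1.80 ± 0.20, MNT at -1.53 ± 0.12 and MXD4 at -1.45 ± 0.19, and 1 was higher and 5 were lower at 24 h. Of 21 MYC targets outside the nucleolus, 7 were higher and 2 lower in PC-3 at both times. Targets were not split by whether MYC raises or lowers them, so these counts give no direction of MYC activity. ODC1, the first enzyme of polyamine synthesis, was at 1.38 ± 0.10, TERT, the catalytic subunit of telomerase, at 1.34 ± 0.15 and the phosphatase CDC25A at 1.29 ± 0.12 after 12 h. In CT1258, 5 of 16 targets were higher and 6 lower after 12 h, and 4 and 6 at 24 h, with GADD45A at -1.74 ± 0.14, CDC25A at 1.51 ± 0.11 and SHMT2 at -1.45 ± 0.10 after 12 h. None of either list was called in LNCaP by edgeR at 0.001, and at an adjusted p under 0.05 there were 1 higher and 2 lower partners and 1 higher and 1 lower target after 12 h (9.14% of all genes). Without replicate 2 of the 12 h group these were 2 and 6 partners and 6 and 1 targets (29.1% of all genes), with 1 partner and 2 targets called at 0.001.

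Further ribosome biogenesis genes of PC-3 were counted by role, beside 13% higher and 14.6% lower of all genes after 12 h. Of the small subunit genes outside the members, 10 of 48 were higher and 3 lower, with IMP3 at -1.14 ± 0.092, HEATR1 at 0.98 ± 0.17 and NOL6 at 0.83 ± 0.12. Of 55 other large subunit genes, 12 were higher and 2 lower, with RSL24D1 at -0.90 ± 0.16, URB2 at 0.88 ± 0.14 and RBM28 at 0.87 ± 0.096. Of 14 other RNA polymerase I genes 1 was lower (POLR1D, -0.88 ± 0.13), of 13 snoRNP and assembly genes TCOF1 was higher (1.18 ± 0.099) and PIH1D1 lower (-0.97 ± 0.10), and of 15 genes of the exosome, which trims ribosomal RNA, EXOSC9 was higher (0.62 ± 0.12) and EXOSC5 lower (-0.79 ± 0.13). After 24 h these lists had in turn 2 higher and 2 lower, 4 and 1, 0 and 1, 1 and 1, and 0 and 0, beside 8.88% and 10.5% of all genes. In CT1258 after 12 h they had 13 higher and 12 lower of 41, 12 and 13 of 52, 3 and 4 of 10, 2 and 3 of 13, and 5 and 3 of 14, beside 22.2% and 22.1% of all genes.

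The cytosolic ribosomal protein genes of PC-3 fell together. After 12 h 71 of 77 were lower and 0 higher, and after 24 h 70 were lower and 0 higher, with a median log2 fold change of -1.07 and -1.01. Of all genes, 13% were higher and 14.6% lower after 12 h and 8.88% and 10.5% after 24 h. RPL13A was at -2.08 ± 0.12 and RPL29 at -1.38 ± 0.11 after 12 h. All 79 listed genes of this kind together took up 6.32% and 8.25% of the counts in the DMSO samples, 3.68% to 3.77% after 12 h and 3.71% to 4.07% after 24 h. In LNCaP 0 of 77 were called by edgeR at either time (0.0076% and 0% of all genes). At an adjusted p under 0.05, 0 were higher and 5 lower after 12 h and 0 after 24 h (9.14% and 2.92% of all genes). Without replicate 2 of the 12 h group, 32 were lower at 0.05 after 12 h and 4 after 24 h (29.1% and 27.9% of all genes in either direction). In CT1258, 13 of 43 were higher and 16 lower after 12 h and 14 and 15 after 24 h. The shares of all genes there were 22.2% higher and 22.1% lower after 12 h and 16.6% and 17.2% after 24 h. RPS24 was at 3.34 ± 0.36, RPL31 at 2.89 ± 0.15 and RPL21 at 2.18 ± 0.10 after 12 h. Ribosomal protein genes have many processed copies, and their counts are uncertain in the same way as those of NPM1.

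The E-box was set beside the response in PC-3 as a description. After 12 h the median log2 fold change was 0.21 for the 12 members with the motif (2 higher and 0 lower) and 0.18 for the 18 without it (2 higher and 1 lower). Of all genes, 13% were higher and 14.6% lower. After 24 h the medians were 0.12 and 0.15. In LNCaP after 12 h they were 0.44 and 0.08, but 0.087 and 0.13 without replicate 2 of that group, so that the order rests on this sample. After 24 h they were 0.31 and 0.21. In CT1258, where human promoters stand in for the canine ones, the medians of 12 and 15 members were -0.18 and 0.01 after 12 h and -0.12 and 0.13 after 24 h. After 24 h, 2 members with the motif were higher and 4 lower, and 5 and 2 of those without it (16.6% and 17.2% of all genes). With the GC and length correction, RRP9 was called higher and FBL, GNL3, PNO1 and WDR43 lower among those with the motif after 24 h. Among those without it, NPM1 was higher and POLR1C lower. Without the GC and length correction, 17 of the 38 members were called in no comparison with DMSO, namely DDX10, DKC1, GNL3, LTV1, NCL, NIP7, NOLC1, NOP16, NOP2, NOP56, NOP58, POLR1B, PPAN, RRP9, TSR1, UBTF and WDR43. With it, DDX10, GNL3, LTV1, POLR1B, RRP9, UBTF and WDR43 of these gained calls. GNL3 was then called lower after 12 h and 24 h in PC-3 (-0.32 and -0.39) and in CT1258 (-0.46 and -0.38). PPAN was low, with 5.00 and 6.30 CPM in PC-3 with DMSO. Of its exons, 49.2% overlap the read-through gene PPAN-P2RY11 on one strand, and its counts are thus uncertain.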

How the data were processed

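Poly(A)-selected RNA was sequenced as single reads. The authors aligned reads with STAR 2.3.1s (human, hg19) or BWA (canine, CanFam3.1), and deposited whole read counts per gene without normalization. The counting strand setting is not given in the sources used here. One deposited count column carried trailing separators, which were removed, and is listed as another unit for that reason. For 2 PC-3 12 h samples, called P12-1 and P12-2, the labels do not settle the replicate number.

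After filterByExpr and TMM scaling, each cell line was tested with all 3 groups in 1 fit by the quasi-likelihood F test of edgeR 4.0.16 in R 4.3.3, with Benjamini-Hochberg adjustment over all genes tested and 0.001 as threshold. A difference in response between lines was tested as an interaction over 11736 shared genes at 0.05, and PC-3 and LNCaP DMSO were compared in a fit over 15018 genes. CPM were scaled with the TMM factors. SE are the absolute log2 fold change over the root of F. P-values set each difference against the spread between these samples. Scripts were tested on simulated data.

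The members and lists were chosen with earlier results of these data known. Named genes are MYC, the 3 highest and 3 lowest called members per comparison with DMSO (LNCaP: adjusted p under 0.05), members called in opposite directions, the 2 largest differences per line pair, and up to 3 of the largest called genes per list. Others were named after their values were seen, and some genes that these choices name are not reported here. Exon positions, overlaps and GC content come from GENCODE on GRCh37, the same build as hg19, and promoters from RefSeq. Alternatives were DESeq2 1.42.0 size factors and Wald test, library size only, no filter, the likelihood ratio test, limma 3.58.1 voom with sample weights, another threshold, only the 2 groups compared, thinned DMSO counts, a replicate block, leaving out single samples, and a GC and length correction added after seeing the data. Fits across lines left out only LNCaP 12 h replicate 2. The E-box medians, GC correlations and list counts without this sample were also added after seeing the data.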

Additional observations from a re-analysis of the deposited data

Results flagged for a closer look

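The values below were picked out because the response to PDA-66 differed between 2 cell lines by a test of the difference itself (edgeR quasi-likelihood interaction, adjusted p under 0.05). They are log2 differences, the response of the line named first minus that of the second.

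For MYC the difference was -1.45 after 12 h and -0.99 after 24 h between PC-3 and LNCaP, and -1.40 and -0.71 between PC-3 and CT1258. For FBL it was -1.89 after 12 h between PC-3 and LNCaP and 2.13 between LNCaP and CT1258, which became -0.79 and 1.02 without LNCaP 12 h replicate 2. For POLR1A it was 1.13 after 24 h between PC-3 and LNCaP (1.11 without that sample). For NPM1 it was -2.22 after 12 h and -2.18 after 24 h between PC-3 and CT1258, and -2.18 and -2.15 between LNCaP and CT1258. For POLR1E it was 1.25 after 24 h between PC-3 and CT1258. For RRN3 it was -1.06 after 24 h between LNCaP and CT1258. None of these differences was fitted with the GC and length correction. Groups of 3 were not searched member by member for single outlying values.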

How the results depend on the processing

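MYC was called in PC-3 at both times under every alternative run. The median log2 fold change of the members moved with scaling by library size only to 0.24 (PC-3, 12 h), 0.23 (PC-3, 24 h) and 0.0388 (CT1258, 12 h), and with the GC content and length correction to 0.20 (PC-3, 24 h), -0.13 (CT1258, 12 h) and -0.0547 (CT1258, 24 h).

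The counts of called members were, in PC-3 after 12 h and 24 h, 20 and 19 at an adjusted p under 0.05 (57% and 49.9% of all genes), 15 and 10 by the DESeq2 Wald test (33.9% and 25.9%), 16 and 12 by the likelihood ratio test (38.8% and 30.6%) and 16 and 12 with the GC and length correction (35.9% and 27.1%). After 12 h, 5 were called with only the 2 groups compared (19.3%), and after 24 h 9 with library size only (19.8%) and 8 without a filter (15.4%). In LNCaP after 12 h they were 2 at 0.05 (9.14%), 2 by the DESeq2 Wald test (4.71%) and 4 by limma voom (13.9%), and after 24 h 4 by limma voom (11.2%). In CT1258 after 24 h they were 9 with the correction (25%) and 7 with only the 2 groups compared (23.9%). Between 24 h and 12 h, the likelihood ratio test called 2 in PC-3 (5.05%) and 2 in CT1258 (7.38%). Between PC-3 and LNCaP with DMSO, 16 passed 0.05 (63.6%) and 12 were called by limma voom (42.4%).

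For the differences in response, 0.001 as threshold left 2 and 0 members after 12 h and 24 h for PC-3 and LNCaP (3.57% and 1.23% of all genes), 5 and 2 for PC-3 and CT1258 (9.33% and 4.79%) and 4 and 2 for LNCaP and CT1258 (12.8% and 3.44%). By limma voom they were 10 and 8 for PC-3 and LNCaP (25.8% and 20.7%), and after 24 h 16 for PC-3 and CT1258 (40.5%) and 21 for LNCaP and CT1258 (49%).

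MYC in CT1258 after 12 h passed by limma voom (-0.27, adjusted p = 0.000229), where the cause was not tested. MYC in LNCaP after 24 h, near 0, became -0.00636 with library size only. MYBBP1A and WDR75 in CT1258 after 12 h turned to 0.0289 and -0.15 with the correction.

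Leaving out single samples gave medians of -0.0425 to 0.0106 and -0.0377 to 0.0178 (CT1258, 12 h and 24 h), 0.09 to 0.26 and 0.19 to 0.28 (LNCaP) and 0.18 to 0.23 and 0.15 to 0.22 (PC-3). Called members ranged from 12 to 18 and 7 to 21 in CT1258, 5 to 12 and 3 to 9 in PC-3 and stayed at 0 in LNCaP, and between 24 h and 12 h from 0 to 4 in CT1258 and 0 to 2 in PC-3. The highest counts came without DMSO replicate 2, and for PC-3 between 24 h and 12 h also without DMSO replicate 3. MYC ranged from -1.81 to -1.70 and -1.05 to -0.92 in PC-3, -0.43 to -0.15 and -0.14 to 0.15 in LNCaP (-0.00967 without 24 h replicate 3), and -0.46 to -0.23 and -0.38 to -0.15 in CT1258. Without LNCaP 12 h replicate 2 the differing members were 10 and 8, 17 and 17, and 15 and 20 in the order above.

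The deviations of same-numbered samples from their group means had correlations from -0.114 to 0.0831 in PC-3, -0.42 to 0.185 in LNCaP and -0.189 to 0.153 in CT1258. With so few samples in a group, the deviations are tied to each other and their signs are partly fixed. Whether same-numbered samples share a culture or batch cannot be read from these values. With the replicate block, 3 members were called in PC-3 after 24 h, 0 and 0 in LNCaP and 14 and 14 in CT1258, and 7 of 36 named values lost their call. PC-3 after 12 h was not fitted with the block, because its replicate labels are unclear. The lower depth of the CT1258 PDA-66 samples limits low genes most.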

Other observations

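UTP20, looked at across the lines after its values were seen, was above 0 on the log2 scale in each comparison with DMSO. It was at 1.38 and 0.86 in PC-3 after 12 h and 24 h, at 0.51 and 0.69 in LNCaP and at 0.75 and 0.62 in CT1258. In LNCaP it had 76.3, 70.1 and 67.5 CPM with DMSO and 114, 121 and 110 CPM after 24 h, without overlap, at an adjusted p of 0.0738. In CT1258 it had 110, 79.1 and 105 CPM with DMSO and 170, 176 and 150 CPM after 12 h. This was not particular to UTP20, since RRP1B, NOP58, UTP15, WDR75, POLR1B and LTV1 were also above 0 in each comparison with DMSO. These values are without the GC and length correction. With it, UTP20 was at 0.36 and 0.30 in CT1258 and lost its call after 24 h (adjusted p = 0.00421, edgeR quasi-likelihood test). RRP1B and UTP15 stayed above 0 there at both times. NOP58 and LTV1 were below 0 at both, WDR75 after 12 h and POLR1B after 24 h. The comparisons of one line share their DMSO samples.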
